A study of Mus musculus with 6 samples.

Results

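Tyrosine degradation and the related aminotransferases were followed through 6 genes, Tat, Hpd, Hgd, Fah, Got1 and Got2, among 19938 named genes on mouse whole-transcript arrays. They were chosen by name, and each gene was represented by the array row with exactly 1 gene symbol that had the highest mean over all 6 arrays. That mean mattered for Got2 alone, which had 2 rows (means 11.22 and 11.16). The other 5 genes had 1 row each. The genes were put together with earlier results of these data known, Tat as one of the largest rises, so the differences of the 6 genes are a description of these arrays, and the Tat difference is given with its error and no test.

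The arrays held RNA from preparations of all epithelial cells of the jejunum, the stretch of small intestine between duodenum and ileum, of mice. The 3 control animals carried R26-M2rtTA, a doxycycline-dependent activator placed at the Rosa26 locus, which is active in most tissues and so does not restrict the system to the epithelium. The 3 transgenic animals carried R26-M2rtTA and a Musashi transgene under a TRE (tetracycline-responsive) promoter, named TRE-Msi1 in the series text and TRE-MSI2 in the genotype label. All animals of both groups drank doxycycline for 24 h, so the groups differ in the transgene and not in the drug. No transgenic animals without doxycycline were included, so carrying the transgene and its induction cannot be told apart. The labels used here give neither age nor strain. The induced gene was Msi1, with log2 signals of 6.86 to 7.03 on the control arrays and 12.51 to 12.68 on the transgenic arrays.

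As background, tyrosine is broken down mainly in liver and to a lesser degree in kidney. Tat, tyrosine aminotransferase, moves the amino group of tyrosine to 2-oxoglutarate and forms 4-hydroxyphenylpyruvate. Hpd turns this into homogentisate, Hgd opens the ring to maleylacetoacetate, the isomerase Gstz1 converts that to fumarylacetoacetate, and Fah splits the product into fumarate and acetoacetate. Got1 and Got2 are the cytosolic and mitochondrial aspartate aminotransferases, which exchange amino groups between aspartate and glutamate and work in the malate-aspartate shuttle that carries reducing equivalents into mitochondria. Intestinal epithelium takes up glutamate and aspartate from the diet and uses them as fuel.

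The 250 bases before the annotated start of Tat and of Fah are shown because their signals differed in opposite directions, Tat higher and Fah lower in the transgenic arrays. Capitals mark matches to CCAAT, the GC box GGGCGG, the TATA box TATAAA, the cAMP response core TGACG, the glucocorticoid receptor core TGTTCT and the amino acid response element TGATGNAA, read on both strands, so that CCAAT on the other strand appears as ATTGG. The sequences are from RefSeq on GRCm38.p6, Tat from the plus strand of chr8:109990186-109990435 and Fah from the minus strand of chr7:84605943-84606192.
Tat: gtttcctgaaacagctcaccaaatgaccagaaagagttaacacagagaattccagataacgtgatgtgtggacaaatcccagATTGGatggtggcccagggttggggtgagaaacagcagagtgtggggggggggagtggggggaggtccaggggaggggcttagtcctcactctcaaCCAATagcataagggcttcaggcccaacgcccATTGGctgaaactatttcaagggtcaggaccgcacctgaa
Fah: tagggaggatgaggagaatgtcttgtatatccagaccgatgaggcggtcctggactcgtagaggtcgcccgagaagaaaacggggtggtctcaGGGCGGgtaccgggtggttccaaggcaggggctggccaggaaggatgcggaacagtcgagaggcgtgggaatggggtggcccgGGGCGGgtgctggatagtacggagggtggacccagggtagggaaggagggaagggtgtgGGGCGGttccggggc
Tat held 3 CCAAT matches, in bases 168 to 164, 72 to 68 and 40 to 36 before its start, and no match to the other 5 motifs. Fah held 3 GC boxes, in bases 157 to 152, 74 to 69 and 15 to 10 before its start, and no other match. Of 32841 upstream windows of the same length, 33.9% held CCAAT and 32.7% a GC box, so neither motif is rare. The G and C content was 53.6% for Tat and 64.4% for Fah, with a median of 52.4% over all windows. All 6 genes had 1 window each. Hpd held 1 GC box, Hgd 2 CCAAT matches and a TATAAA match, and Got2 a TATAAA match. Got1 held 5 CCAAT matches and 1 match to the amino acid response element, which 3.45% of all windows held. TATAAA was found in 12.4% of all windows, TGACG in 17.8% and TGTTCT in 16.1%. These matches describe letters only, and the motifs were picked with the expression values known.

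Along the pathway, the gene of its entry step was much higher in the transgenic epithelium and genes of later steps were not. Tat was 35.6-fold higher. Of the later members Fah was 1.64-fold lower, and Hpd was lower on 2 of the 3 transgenic arrays and higher on replicate 1. Hgd, with a low signal on every array, differed by 0.07 on the log2 scale. Gstz1, the step between Hgd and Fah and not one of the 6 genes, was 5.67-fold lower. Neither aspartate aminotransferase passed. In the fit across all genes 1 of the 5 genes other than Tat passed, Fah, as lower. Of all genes 11.9% passed (6.04% higher, 5.84% lower), and nothing is read from the count, since the genes were chosen with this comparison known. Passing means a limma adjusted p under 0.05 over all 19938 genes.

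**Figure D1:**
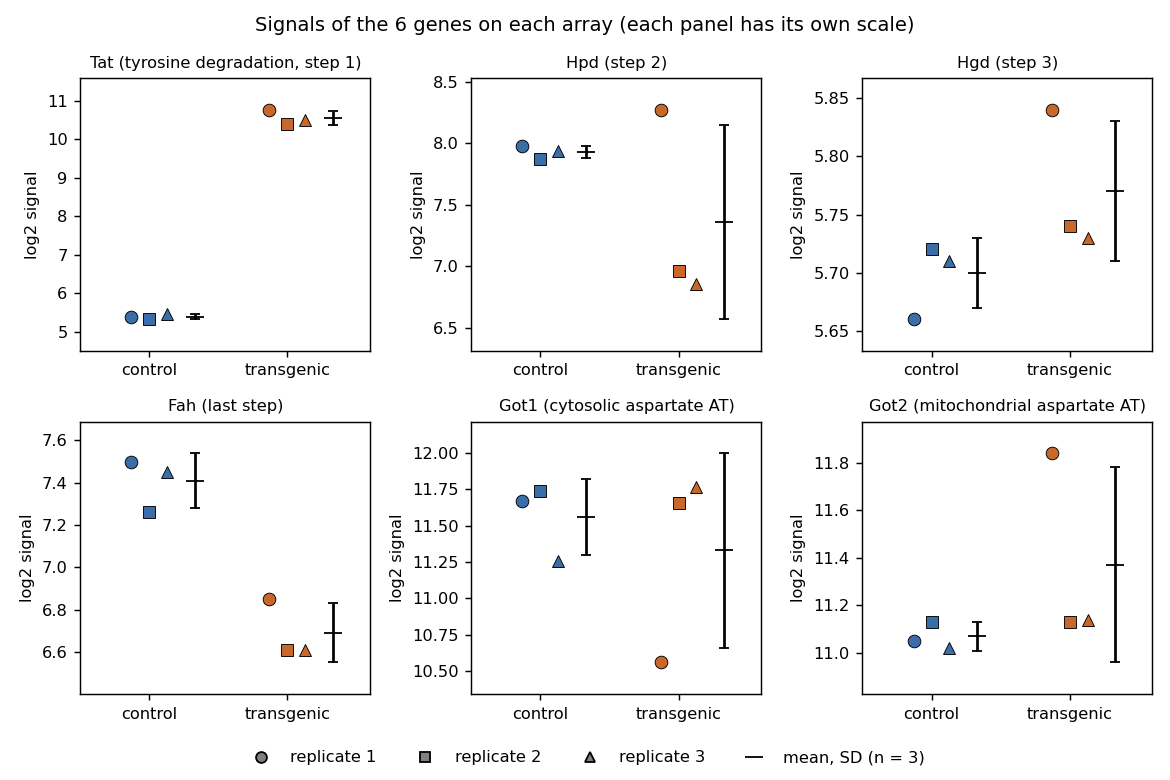
Log2 signal of each of the 6 genes on the 3 control (blue) and 3 transgenic (orange) arrays, with marker shapes for replicates 1 to 3 and black bars for mean and SD, each panel on its own vertical scale. Tat lies near 5.4 on the controls and above 10.3 on the transgenic arrays, while for Hpd, Got1 and Got2 transgenic replicate 1 lies apart from the other arrays of its group.

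Tat (row 10575349) had log2 signals of 5.39, 5.32 and 5.47 on the control arrays and 10.76, 10.39 and 10.49 on the transgenic arrays. All transgenic arrays were high, and the gap between the groups was far wider than the spread within either. The means were 5.39 ± 0.07 and 10.55 ± 0.19 (SD, n = 3 each), 5.15 log2 units apart (SE 0.119, 95% interval 4.86 to 5.44). It was the third largest of all differences upward, at rank 3 of 19938. Without transgenic replicate 1 it was 5.04 (33-fold). Controls carried a low signal, and the table has no detection call, so whether Tat was above background in control epithelium cannot be told. Because summary by RMA compresses low signals, the fold may be understated. Tat was also chosen as one of the largest rises in these data, which can overstate the difference, so the fold is not a lower bound.

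The genes with the pattern most like Tat over the 6 arrays were found by the root mean square distance between values taken relative to each gene's control mean. They were Msi1 at 0.40, Lcn2, an iron-binding defence protein, at 0.57, and Lrg1, a secreted glycoprotein, at 0.76 log2 units, among 17980 genes compared. The distance is not scaled, so only genes with a difference of like size can lie near Tat. Msi1, Lcn2 and Lrg1 had ranks 2, 1 and 8 among all differences upward, and nothing is read from their nearness. Lcn2 and Lrg1 were highest on transgenic replicate 1, at 12.57 and 10.83, where replicates 2 and 3 had 11.57 to 11.64 and 9.26 to 9.64. Tat was likewise highest on replicate 1, by 0.28 over the next array, whereas Msi1 was lowest there.

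Hpd (row 10533612), 4-hydroxyphenylpyruvate dioxygenase, had 7.98, 7.87 and 7.94 on the controls and 8.27, 6.96 and 6.86 on the transgenic arrays. The groups overlapped in a particular way, because transgenic replicate 1 lay above every control and replicates 2 and 3 below every control. The difference over all arrays was -0.57 (SE 0.375, 95% interval -1.48 to 0.35, limma adjusted p = 0.441). Without transgenic replicate 1 it was -1.02 (SE 0.0853, limma adjusted p = 7.66e-05), 2.03-fold lower, in a setting where 28.6% of all genes passed (14.0% higher, 14.5% lower). In that setting 2 of the 5 genes other than Tat passed, Hpd and Fah, both as lower.

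Hgd (row 10435626), homogentisate dioxygenase, stayed within a narrow range, with 5.66, 5.72 and 5.71 on the controls and 5.84, 5.74 and 5.73 on the transgenic arrays. The transgenic arrays all lay above the controls, but by at most 0.18 between any 2 arrays. The difference was 0.07 (SE 0.0758, 95% interval -0.11 to 0.26, limma adjusted p = 0.644). The interval leaves room for a change of up to 0.26 log2 units upward at a signal that was low on every array. That signal lay below the array medians of 6.27 to 6.34, and whether Hgd was above background on any array cannot be told.

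Gstz1 (row 10397507), the maleylacetoacetate isomerase, had 8.80, 8.65 and 8.87 on the controls and 6.0, 6.70 and 6.11 on the transgenic arrays. The groups were far apart, and the difference was -2.50 (SE 0.196, 95% interval -2.98 to -2.03, limma adjusted p = 0.00192). It was the 45th lowest of all differences, and it passed with each array left out in turn (limma adjusted p up to 0.0194).

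Fah (row 10565315), fumarylacetoacetase, had 7.50, 7.26 and 7.45 on the controls and 6.85, 6.61 and 6.61 on the transgenic arrays. The groups did not overlap, and the lowest control lay 0.41 above the highest transgenic array. Means were 7.41 ± 0.13 and 6.69 ± 0.14 (SD, n = 3 each), and the difference was -0.71 (SE 0.112, 95% interval -0.99 to -0.44, limma adjusted p = 0.0134). The call was lost without control replicate 1 (0.0752), control replicate 3 (0.0675) or transgenic replicate 2 (0.0543), with differences from -0.69 to -0.67. Without transgenic replicate 1 the difference was -0.80 and passed. The genes of nearest pattern to Fah were Mta3, a subunit of a chromatin-remodelling complex, Hes2, a Hes family transcription factor, and Sephs2, selenophosphate synthetase, at distances of 0.05 to 0.06 and with differences of -0.71, -0.73 and -0.75.

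**Figure D2:**
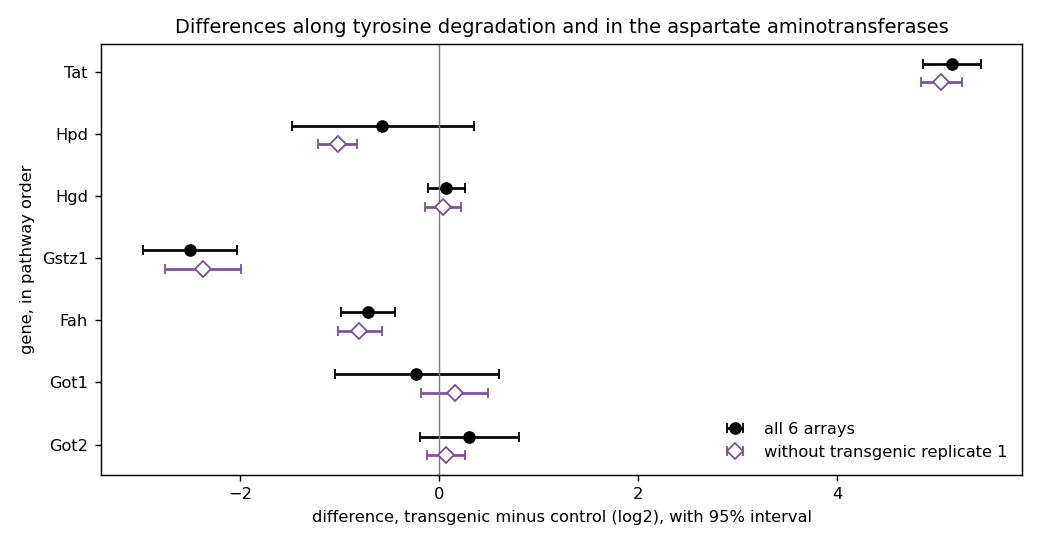
Difference between transgenic and control means (log2, horizontal axis) with its 95% interval from limma for the 6 genes and Gstz1, with all 6 arrays (filled circles) and without transgenic replicate 1 (open diamonds). Tat lies at 5.15, Gstz1 at -2.50 and Fah at -0.71 with all arrays, and the interval of Hpd covers 0 with all arrays but not without transgenic replicate 1.

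Got1 (row 10467842), the cytosolic enzyme, had 11.67, 11.74 and 11.26 on the controls and 10.56, 11.66 and 11.77 on the transgenic arrays. Transgenic replicate 1 was the lowest of all arrays, and replicates 2 and 3 lay in or just above the range of the controls, which themselves spread over 0.48. The difference was -0.23 (SE 0.340, 95% interval -1.05 to 0.60, limma adjusted p = 0.764), and it turned to 0.16 (95% interval -0.18 to 0.49, limma adjusted p = 0.536) without transgenic replicate 1.

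Got2, the mitochondrial enzyme, showed the opposite on that array. Its row 10535025 had 11.05, 11.13 and 11.02 on the controls and 11.84, 11.13 and 11.14 on the transgenic arrays, with a difference of 0.30 (SE 0.204, 95% interval -0.19 to 0.80, limma adjusted p = 0.449). Its other row, 10580969, had 10.98, 11.05 and 10.96 on the controls and 11.78, 11.06 and 11.10 on the transgenic arrays, with a difference of 0.32. Both rows put transgenic replicate 1 well above all other arrays and the remaining transgenic arrays next to the controls. Without transgenic replicate 1 the difference of Got2 was 0.07 (95% interval -0.12 to 0.26, limma adjusted p = 0.669).

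For 3 of the 6 genes transgenic replicate 1 stood apart from the rest of its group. Relative to the control mean it stood at 0.35 for Hpd, -0.99 for Got1 and 0.77 for Got2, where the mean of replicates 2 and 3 stood at -1.02, 0.16 and 0.07. For Tat (5.37 and 5.04) and Fah (-0.55 and -0.80) replicate 1 went the same way as the others. The groups did not overlap for 4 of the 6 genes (Tat, Hgd, Fah and Got2), as for 34.2% of all genes. With 3 arrays per group an exact permutation test, two-sided, can give no p under 0.1, which is why single genes were read through the fit across all genes.

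Across all genes, transgenic replicate 1 correlated with the other arrays at 0.922 to 0.951, against 0.995 to 0.996 among the controls and 0.996 between transgenic replicates 2 and 3. A list of 13 markers held general epithelial genes such as Epcam and Cdh1 and enterocyte genes such as Lct and Sis. It was bright on the controls, with medians of 12.16 to 12.39. Its genes did not move together on transgenic replicate 1. There, relative to the control mean, Epcam stood at -0.24, Cdh1 at 0.27 and Krt20 at -0.75, against -4.26 for Lct and -3.67 for Sis. The median of that list stood 1.48 below the control mean on transgenic replicate 1 and 0.14 and 0.16 below it on replicates 2 and 3, and 1 of the 13 passed with all arrays (Cdh1, higher, a call lost with trend and robust settings in eBayes). Cdh1 passed as higher and 5 as lower (Vil1, Cdx2, Fabp1, Sis and Lct) without transgenic replicate 1, in a setting where 14.5% of all genes passed as lower. The median difference of the 13 was -0.62 with all arrays and -0.15 in that setting. The summed log2 signals of the 13 ranged from 157.52 to 158.86 on the controls and from 135.04 to 156.12 on the transgenic arrays. Of 9 leukocyte markers 0 passed by limma with all arrays (1 higher and 1 lower at an unadjusted p under 0.05). Without transgenic replicate 1 limma passed 1 as higher (Itgam) and 4 as lower (Ptprc, Cd3e, Cd3g and Cd8a), in the setting where 28.6% of all genes passed. The other 4 did not pass. Relative to the control mean Ptprc, Cd3e, Cd3g and Cd8a stood at -2.24, -2.42, -4.32 and -2.68 on transgenic replicate 1. Their means over replicates 2 and 3 stood at -0.64, -0.48, -0.72 and -0.62. The summed log2 signals of the 9 markers were 61.29 to 63.01 on the controls and 50.16 to 60.93 on the transgenic arrays. In such preparations fewer cells of a type and less RNA per cell cannot be told apart, and the part of these shifts in the values of Hpd, Got1 and Got2 was not tested.

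Tat is best known from hepatocytes, so hepatocyte markers were read beside it. The 14 markers, among them Alb, Ttr, Fga and Cyp2e1, had log2 signals between 3.75 and 6.89 on every array. Their summed log2 signals were 73.72 to 74.78 on the controls and 73.76 to 75.29 on the transgenic arrays, and the median of their differences was 0.03. Limma passed 0 of the 14 with all arrays (1 at an unadjusted p under 0.05, Fgb), and 2 as higher without transgenic replicate 1, by 0.40 for Ttr and 0.28 for Fgb. Of 7 pancreatic acinar markers and 9 markers of stroma, muscle and vessels limma passed 0 each with all arrays (0 and 1 at an unadjusted p under 0.05), and without transgenic replicate 1 it passed 0 and 1 (Dcn, lower). The acinar markers summed to 39.06 to 40.26 on the controls and 38.04 to 40.37 on the transgenic arrays, and the stromal markers to 56.17 to 57.71 and 54.81 to 56.41. The eBayes alternative with trend and robust settings passed 0 markers of any of the 5 marker lists.

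**Figure D3:**
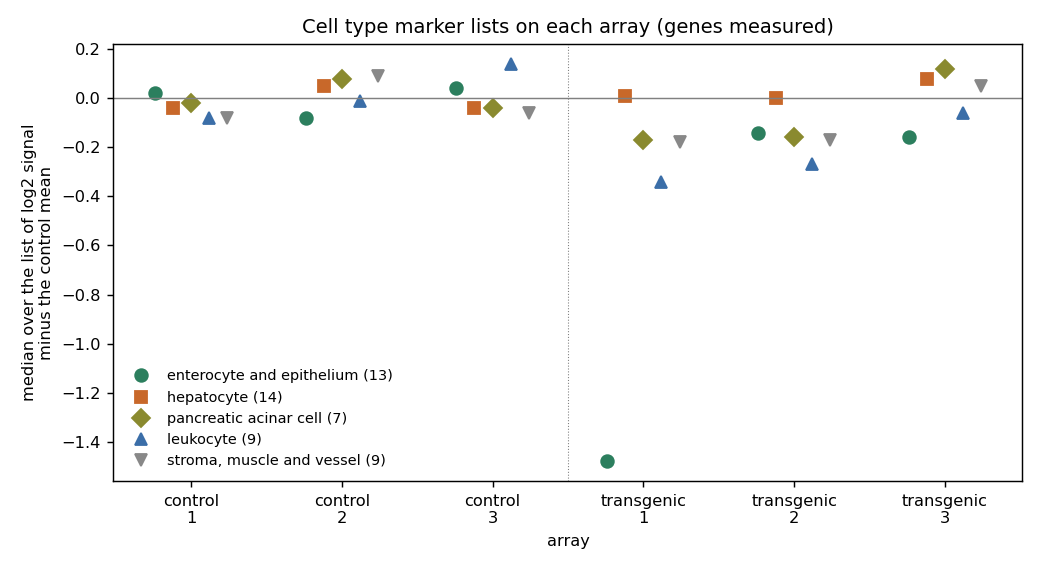
Median over each marker list of the log2 signal minus the control mean (vertical axis) on each of the 6 arrays (horizontal axis), with 1 symbol per list and the number of genes measured in brackets. The enterocyte and epithelium list stands at -1.48 on transgenic replicate 1, while the hepatocyte list lies between -0.04 and 0.08 on every array.

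Beyond the 6 genes, 96 genes of neighbouring amino acid metabolism were measured in 7 lists. Of these 22 passed, 6 higher and 16 lower (22.9%, against 11.9% of all genes). With the dimmest 40% of genes left out, 22 of 75 list genes passed, and 2340 of 11963 genes in all. The lists were chosen with earlier results of these data known, so nothing is read from the counts. The median difference of all genes was -0.04. With each array left out in turn 11 of the 22 passed every time, and the other 11 were lost in 3 to 5 of the 6 settings, never in the one without transgenic replicate 1. Without that array 9 of the 96 passed as higher and 37 as lower, where 14.0% and 14.5% of all genes did. With equal array medians 16 of the 96 passed, 6 higher and 10 lower, and over all genes 1314 higher and 927 lower.

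**Figure D4:**
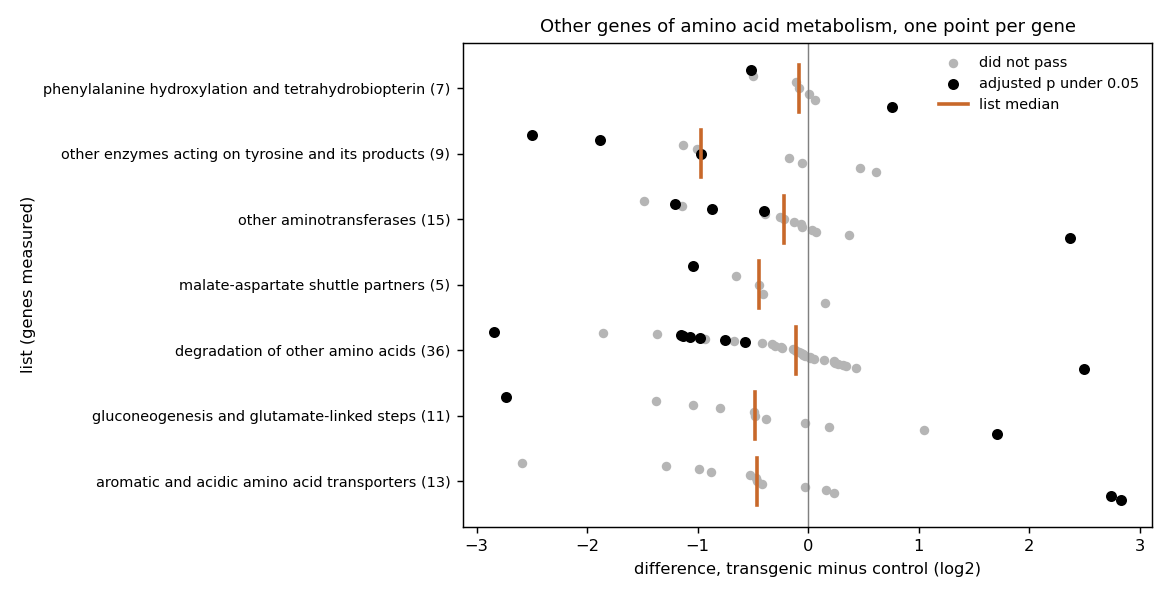
Difference between transgenic and control means (log2, horizontal axis) for each gene of the 7 lists, black where the limma adjusted p was under 0.05 and grey where it was not, with orange bars at the list medians. The list of enzymes acting on tyrosine and its products has the lowest median, -0.97, which is the value of the tryptophan hydroxylase Tph1. Without transgenic replicate 1 the median of that list was -0.32, next to -0.31 for the malate-aspartate shuttle partners. Psat1, Kmo, Asns, Slc7a5 and Slc6a14 stand at 1.71 to 2.83.

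Phenylalanine is hydroxylated to tyrosine with the cofactor tetrahydrobiopterin. Of 7 measured genes that make, regenerate or control this cofactor 1 rose and 1 fell, with a median of -0.08. Gch1, which starts tetrahydrobiopterin synthesis, rose by 0.76 (limma adjusted p = 0.0280), and Qdpr, which regenerates the cofactor, fell by 0.52 (limma adjusted p = 0.0140). Each was no longer called when any 1 control, or transgenic replicate 2, was left out (limma adjusted p up to 0.0979 and 0.0807). Gchfr, which restrains Gch1, differed by -0.50 (-0.25 without transgenic replicate 1) and Pcbd2 by -0.11 (-0.05 without it), and neither passed in either setting.

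Of 9 other enzymes acting on tyrosine, tryptophan or their products 3 fell and 0 rose by limma (1 higher at an unadjusted p under 0.05), with a median of -0.97. In the fit without transgenic replicate 1, 5 passed as lower and the median was -0.32. Besides Gstz1, Maoa, which oxidises monoamines, fell by 1.88 (limma adjusted p = 0.00765), and Tph1, the tryptophan hydroxylase of serotonin-producing cells, fell by 0.97 (limma adjusted p = 0.0334). Maoa passed with each array left out, while Tph1 kept its call when transgenic replicate 1 was left out and no other array (limma adjusted p up to 0.122). Ddc, which decarboxylates aromatic amino acids, and Maob differed by -1.13 and -1.01 and did not pass with all arrays. Without transgenic replicate 1 both passed, at -0.72 and -0.32.

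Of 15 other aminotransferases 1 rose and 3 fell, with a median of -0.22. The counts without transgenic replicate 1 were 1 higher and 7 lower. Psat1, the aminotransferase of serine synthesis, rose from 7.31 ± 0.15 to 9.68 ± 0.92 (SD, n = 3 each), by 2.37 (SE 0.439, limma adjusted p = 0.0222). Its signal was 10.74 on transgenic replicate 1 and lower, at 9.18 and 9.11, on replicates 2 and 3. Phykpl, a phospholyase of the aminotransferase family, fell by 0.87 (limma adjusted p = 0.00501), Agxt2 by 0.40 (limma adjusted p = 0.0309) and Kyat1, a kynurenine aminotransferase, by 1.21 (limma adjusted p = 0.0394). Agxt2 had a low signal on every array, 5.46 to 5.51 on the controls and 4.99 to 5.17 on the transgenic arrays. Psat1 lost its call without any 1 control (limma adjusted p up to 0.0945), Agxt2 also without transgenic replicate 2 (up to 0.138), and Kyat1 in each setting except the one without transgenic replicate 1 (up to 0.142). The alanine aminotransferase gene Gpt had 9.30 to 9.31 on the controls but 6.06 on transgenic replicate 1 and 8.70 and 8.68 on the others, and its difference of -1.49 did not pass. Abat, which degrades GABA, differed by -1.14 and did not pass. Both passed without transgenic replicate 1, at -0.62 and -0.78.

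Of the 5 partners of Got1 and Got2 in the malate-aspartate shuttle 1 fell and 0 rose by limma (0 higher at an unadjusted p under 0.05 too), with a median of -0.45. Slc25a11, the mitochondrial carrier for 2-oxoglutarate and malate, had 11.39, 11.38 and 11.35 on the controls and 10.06, 10.45 and 10.49 on the transgenic arrays. The groups were clearly apart, with a difference of -1.04 (SE 0.130, limma adjusted p = 0.00674) that passed with each array left out. Slc25a13, an aspartate-glutamate carrier, differed by -0.65 and the malate dehydrogenase Mdh1 by -0.45, and neither passed. As lower, 3 of the 5 passed without transgenic replicate 1, with Slc25a13 at -0.87 (limma adjusted p = 5.00e-04), while Mdh1 stood at -0.12 and did not pass.

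Among 36 genes that degrade other amino acids 1 rose and 7 fell, with a median of -0.11. When transgenic replicate 1 was left out, 1 passed as higher and 13 as lower. Kmo, the kynurenine hydroxylase of tryptophan breakdown, rose from 4.72 ± 0.23 to 7.20 ± 0.62 (SD, n = 3 each), or by 2.49 (limma adjusted p = 0.00681). The histidine ammonia-lyase Hal fell by 1.15, Aldh6a1 of valine breakdown by 0.98, Mccc1 of leucine breakdown by 1.13 and Auh, also of leucine breakdown, by 0.75, with limma adjusted p from 0.00362 to 0.0206. Kmo, Hal, Aldh6a1 and Mccc1 passed with each array left out, and Auh was called without transgenic replicate 1 but with no other array left out (limma adjusted p up to 0.0932). The other genes that passed, named after their values were seen, were Afmid (-0.57), Prodh2 (-1.07) and the mitochondrial arginase Arg2 (-2.84, and -2.03 without transgenic replicate 1). They lost the call in 4 or 5 of the 6 settings with an array left out (limma adjusted p up to 0.179). Ido1 and Aldh4a1 differed by -1.86 and -1.37 and did not pass, with 6.35 and 6.07 on transgenic replicate 1 against at least 9.09 and 9.40 on every other array. Without that array Ido1 passed at -0.94 (limma adjusted p = 5.21e-04) and Aldh4a1 stood at -0.25 and did not pass.

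Of 11 genes of gluconeogenesis and glutamate-linked steps 1 rose and 1 fell, with a median of -0.48. With transgenic replicate 1 left out, 2 passed as higher and 4 as lower, and the median was -0.19. Fbp1, fructose-bisphosphatase, fell from 9.45 ± 0.28 to 6.71 ± 0.09 (SD, n = 3 each), which is a difference of -2.73 (limma adjusted p = 0.00114), and Asns, which uses aspartate to make asparagine, rose by 1.71. Both passed with each array left out. Pck1 and Glul differed by -1.38 and 1.05 and did not pass. They stood at -0.22, which did not pass, and 0.58, which did, when transgenic replicate 1 was left out (limma adjusted p = 0.00387). Pck1 was 7.79 on transgenic replicate 1 and 11.23 to 11.93 on the other arrays.

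Of 13 transporters of aromatic and acidic amino acids 2 rose and 0 fell by limma (2 lower at an unadjusted p under 0.05), with a median of -0.46. Leaving out transgenic replicate 1 gave 4 higher and 4 lower, and a median of 0.01. Slc7a5, the light chain of a carrier that exchanges tyrosine and other large neutral amino acids, rose by 2.74 (SE 0.313, limma adjusted p = 0.00530), with 8.08, 8.04 and 7.81 on the controls and 11.45, 10.27 and 10.44 on the transgenic arrays. Slc6a14, a broad neutral and basic amino acid transporter, rose by 2.83 (limma adjusted p = 0.0100), a call lost without any 1 control (limma adjusted p up to 0.0579). Slc43a2 and the brush border transporter Slc6a19 differed by -2.59 and -1.29 and did not pass, and without transgenic replicate 1 they stood at -1.71, which passed, and 0.04, which did not.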

How the data were processed

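RNA (250 ng per array, per the labels' protocols) from jejunal epithelial preparations of 3 control and 3 transgenic mice was hybridised to Affymetrix gene arrays. The values deposited by the authors are log2 signals. The submitters' processing notes name RMA and Partek 6.5, without settings. Because RMA equalises the arrays' distributions, shifts in the RNA content of cells are not visible. Array medians were 6.27 to 6.34, and the number of arrays limits the precision.

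Of 35399 rows, 21789 had 1 gene symbol in the platform annotation, and the row with the highest mean was kept for each of 19938 genes, with no filter on dim genes. Transgenic minus control was fitted with limma 3.58.1 in R 4.3.3 (lmFit, then eBayes without a trend), and p-values were adjusted over all genes by the Benjamini-Hochberg method. All adjusted p-values are from this fit or, where stated, from the same fit with an array left out or with a replicate block. Lists were described by counts and medians, without a set test. The fit was tested on simulated data.

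The members and lists were chosen with earlier results of these data known. Named genes are Msi1, the 6 members, per list up to 5 genes that passed with the smallest p and the 2 largest differences that did not pass, and for Tat and Fah the 3 genes of nearest pattern, leaving out predicted genes and small RNAs. The other 3 genes that passed among those degrading other amino acids, and marker genes, were named outside this rule after their values were seen. Of 107 list genes, 96 had a row with 1 symbol. Upstream sequences come from RefSeq, GRCm38.p6, and the build behind the array annotation is not given in the sources used here. Alternatives left out each array in turn, changed the scaling (quantile normalization, or equal medians), dropped the dimmest 40% of genes, added a block on the replicate number, set eBayes to trend and robust, weighted the arrays, averaged the rows of a gene, or raised the threshold to an adjusted p of 0.1.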

Additional observations from a re-analysis of the deposited data

How the results depend on the processing

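The Tat difference, given without a test, ranged from 5.03 to 5.23 over 14 alternatives. Hgd (0.02 to 0.13) and Got2 (0.06 to 0.42) kept their sign and did not pass under any alternative run for them. Quantile normalization and equal array medians kept the sign of all 6 genes. With array weights, Hpd passed at -0.95 and Got1 turned to 0.06 without passing. With each array left out, Hpd ranged from -1.02 to -0.31, Fah from -0.80 to -0.67 and Got1 from -0.45 to 0.16. In the same settings the count of list genes past the threshold ranged from 11 to 46, and that of all genes from 683 to 5700. Array weights gave 40 list genes and 5770 genes in all, against 22 and 2368.

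Whether the replicate number of the titles pairs the arrays cannot be told. Deviations of same-numbered arrays from their group means correlated at -0.07, -0.17 and -0.12. Transgenic replicate 1 lay far from its group and enters the group mean, so these correlations could hardly show a pairing. With the title number as a replicate block 733 genes and 12 list genes passed, and Fah missed the threshold at -0.71 (limma adjusted p = 0.0516). With the number in the sample descriptions as a replicate block 4019 genes and 34 list genes passed, Hpd passed at -1.0 and Got1 turned to 0.21 without passing. Control replicate 1 and transgenic replicate 1 each had a description number of their own, so only the other arrays set the differences in that fit. It therefore overlaps with the fit without transgenic replicate 1 and is not a separate check. That fit leaves 1 residual degree of freedom and used the same variance for every gene. With 3 arrays per group, an absence of a call does not show that a gene did not change.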
